A study of Mus musculus with 50 samples.

Results

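The 7 genes described here are the iron genes Fth1 (gene ID 14319), Ftl1 (14325), Slc40a1 (53945), Tfrc (22042), Slc11a2 (18174), Aco1 (11428) and Ireb2 (64602). They were chosen by name, as genes whose mRNAs or proteins belong to the iron-responsive control of translation and mRNA stability. The rule uses no measured value, but earlier results of these data were known when the genes were chosen. The array's probe table lists 14 probes for these 7 genes, among 34885 probes for 19057 genes with a single symbol. A gene was tested where the probe with its highest mean signal was detected on at least 3 of the 50 arrays. All 7 passed, among 12644 genes tested.

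Iron-responsive elements (IREs) are hairpins in mRNA that are bound by iron regulatory proteins when cellular iron is low. A protein bound at an IRE in the 5′ untranslated region blocks the start of translation, while proteins bound at IREs in the 3′ untranslated region protect the mRNA from decay. Fth1 and Ftl1 encode the heavy and light chains of ferritin, which stores iron, and Slc40a1 encodes ferroportin, which exports it; all have a 5′ IRE. Tfrc encodes the transferrin receptor, which takes iron up, and Slc11a2 the divalent metal transporter DMT1, which carries it across membranes; Tfrc and some Slc11a2 transcripts have IREs in the 3′ untranslated region. Aco1 encodes iron regulatory protein 1, which is a cytosolic aconitase when it holds an iron-sulfur cluster, and Ireb2 encodes iron regulatory protein 2, which is degraded when iron is plentiful.

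The cells were derivatives of NIH 3T3, a mouse fibroblast line. The inducible line makes extra eIF4E, the protein that binds the cap of mRNAs to start translation, when the steroid mifepristone is added, and another derivative served as its non-inducible control. The 9 conditions were measured over 4 h: the inducible line without mifepristone, with mifepristone and no drug, with mifepristone and 10, 50, 100 or 200 µM of 4Ei-1, an inhibitor of eIF4E, with mifepristone and 4Ei-4 at 200 µM, a less potent analog, and the non-inducible line with or without mifepristone. Of these, 8 had 3 cultures and the non-inducible line without mifepristone had 1, which makes 25 cultures. RNA of the polysome fraction, which the titles call heavy, and total RNA of each culture were hybridised to separate Illumina bead arrays, 50 in all. No group was treated with iron or an iron chelator, per the labels, and neither iron nor the proteins were measured. The labels do not say that the cultures were grown separately or whether a line is a single clone, so p-values measure the spread among these cultures.

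Of 7 fibroblast markers, 6 were detected on all 25 total RNA arrays, Col1a1, Vim and Fn1 among them. Of markers of other cell types, Ptprc (blood), Pecam1 and Cdh5 (endothelial), Krt5 (epithelial) and Alas2 (erythroid) were detected on 0 of the 25. Epcam was detected on 1, Hba-a1 on 2, the epithelial Cdh1 on 10 and the endothelial Kdr on 11. Mean intensity was 183 to 436 per array and 23.9% to 39.9% of probes were detected. Eif4e, the induced gene, was detected on 4 of the 12 arrays with and without mifepristone. Its total RNA was 0.39 ± 0.20 higher with mifepristone on the log2 scale (mean ± SE, limma adjusted p = 0.655), so its probe does not check the induction. Per the labels there were 4 processing batches. Batches 1 and 3 held the inducible line without mifepristone, batches 1, 2 and 3 the line with mifepristone and no drug, batch 3 the 10 µM dose, and batches 1 and 2 the higher doses. Batch 4 held all cultures with 4Ei-4 and all of the non-inducible line, and nothing else.

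The first comparison asks how much of each iron mRNA lay in the heavy polysome fraction for its amount in the cell. No lighter fraction was arrayed, so a low value does not show that an mRNA was free of ribosomes. The measure is the log2 signal of polysome RNA minus that of total RNA of the same culture, averaged over the 9 conditions. The storage, export and uptake mRNAs lay lower on polysomes than in total RNA, and Aco1 and 1 of the 2 detected probes of Ireb2 lay higher. Because arrays were scaled to each other, 0 stands near the average gene, the median over all 12644 genes was 0.05, and the total amount of RNA on polysomes was not measured. In these bulk samples, fewer cells with a given RNA and less of it per cell cannot be told apart.

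Tfrc was lowest, at -1.27 ± 0.14 (limma adjusted p = 8.38e-08), and it lay below 0 in 25 of 25 cultures, between -1.99 and -0.09. Of all genes tested, 3.72% lay lower than Tfrc. Slc40a1 was also below 0 in 25 of 25 cultures, between -1.87 and -0.11, with a mean of -0.85 ± 0.11 (limma adjusted p = 1.23e-06). Ftl1 was below 0 in 24 of 25 cultures, with a mean of -0.88 ± 0.15 (limma adjusted p = 2.57e-05). Slc11a2 was below 0 in 21 cultures (-0.61 ± 0.13, limma adjusted p = 0.000379) and Fth1 in 20 (-0.51 ± 0.15, limma adjusted p = 0.00658). Cultures share batches, so these counts are not of independent values.

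Aco1 lay above 0 in 25 of 25 cultures, between 0.03 and 1.87, with a mean of 0.64 ± 0.14 (limma adjusted p = 0.000491). Aco1 was detected on 19 of 25 polysome and 11 of 25 total RNA arrays, so many of these differences are read from signals near background. Its total RNA was not detected on any array of the inducible line with mifepristone and no drug, or with 4Ei-1 at 50, 100 or 200 µM. Set against the lowest signal detected on those total RNA arrays, its mean polysome signal was at least 1.27-fold higher with no drug, at least 1.08-fold at 100 µM and at least 1.27-fold at 200 µM. On polysomes it was detected on 2 of 3 arrays in each of these conditions and on 1 of 3 at 50 µM, where no ratio is given. Ireb2, by its probe 1, was above 0 in 20 of 25 cultures, with a mean of 0.60 ± 0.16 (limma adjusted p = 0.00319). In the inducible line this probe averaged -0.12, 0.98, 0.86 and 0.09 in processing batches 1 to 4, so its height differed by batch. Its total RNA was detected on 21 of 25 arrays and was lowest in batch 2, at 5.31 on average.

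All 7 genes were thus called at an adjusted p below 0.05, where 45.1% of all genes tested were called. The 2 that lay higher compare with 26.9% of all genes called higher, and the 5 that lay lower with 18.2% called lower. The median over the 7 genes was -0.61. Each of the 7 kept its call and direction when any 1 of the 25 cultures was left out. The differences were closer to 0 for 5 genes with the log2 values the authors deposited, -0.53 for Tfrc, -0.26 for Slc40a1, -0.16 for Slc11a2, 0.10 for Aco1 and 0.19 for Ireb2, and all 7 stayed called there in the same direction.

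Second probes gave the same direction for 3 genes. Probe 2 of Fth1 lay at -0.56 ± 0.16, probe 2 of Tfrc at -1.10 ± 0.19 and probe 2 of Slc11a2 at -0.49 ± 0.16, each called when all detected probes were fitted together. Ireb2 was the exception. Its probe 2, detected on 48 of 50 arrays, lay at -0.32 ± 0.14 (limma adjusted p = 0.0709) and below 0 in 16 of 21 cultures of the inducible line, where probe 1, detected on 46, lay at 0.60, so the direction of Ireb2 depends on the probe. The second probes of Ftl1 and Slc40a1 were detected on 0 arrays and the third probe of Slc11a2 on 1, and they give no value. Probe 2 of Slc11a2 was detected on 16 of 25 polysome and 23 of 25 total RNA arrays. Its values, here and in the comparisons below, are thus read in part from background. Ferritin genes have many processed pseudogenes in the mouse genome, and which copies the probes bind was not tested.

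**Figure D1:**
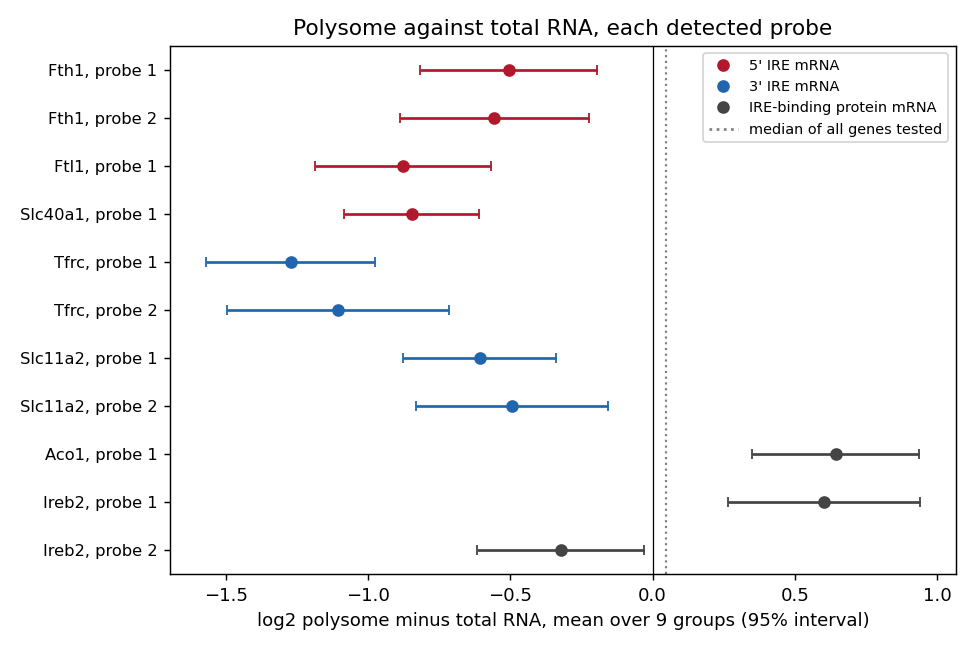
Polysome minus total RNA (log2, horizontal axis) of each detected probe, as the mean over 9 conditions with its 95% interval; red marks 5′ IRE mRNAs, blue 3′ IRE mRNAs, grey the IRE-binding proteins, and the dotted line the median of all genes tested at 0.05. The probes of the 5 storage, export and uptake genes lie at -1.27 to -0.49, Aco1 at 0.64, and the probes of Ireb2 on both sides of 0.

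Condition by condition the same measure had less power, since each test rested on at most 3 cultures. Without mifepristone, 4 of the 7 genes were called lower (Ftl1, Slc40a1, Tfrc and Slc11a2), where 25.3% of all genes were called in either direction. With mifepristone and no drug, Slc40a1 and Tfrc were called lower and Aco1 higher (26.2% of all genes), and at 10 µM 4Ei-1 only Tfrc was called, lower (21.6%). At 50 and at 100 µM Fth1, Ftl1, Slc40a1 and Tfrc were called lower and Aco1 higher (27.8% and 30.4%), and at 200 µM Slc11a2 was called lower as well (31.2%). With 4Ei-4 Ftl1 and Slc40a1 were called lower (17.8%). In the non-inducible line with mifepristone Tfrc (-1.33 ± 0.33, limma adjusted p = 0.00490) and Slc11a2 (-1.12 ± 0.30, limma adjusted p = 0.00879) were called lower (22.9%). No gene of the 7 was called in the single culture of the non-inducible line without mifepristone (7.42%), where the spread was taken from the other conditions, and 1 of the 7, Tfrc, had an unadjusted p below 0.05 by limma.

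The order of the conditions was described for each gene. For Tfrc the means ran from -0.82 with 4Ei-4 to -1.77 at 10 µM 4Ei-1, and each condition's range overlapped that of its neighbour in this order. For Slc40a1 they ran from -0.53 in the non-inducible line with mifepristone to -1.41 at 50 µM, again with every neighbour overlapping. For Fth1 the non-inducible line with mifepristone stood at the top, with 0.99, 0.36 and 0.81 in its 3 cultures, above the 0.07 of the culture without mifepristone. Below these came 10 µM 4Ei-1 at -0.13, 0.12 and -0.62, and the lowest mean was that of 50 µM at -1.02 ± 0.46 (SD, n = 3).

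**Figure D2:**
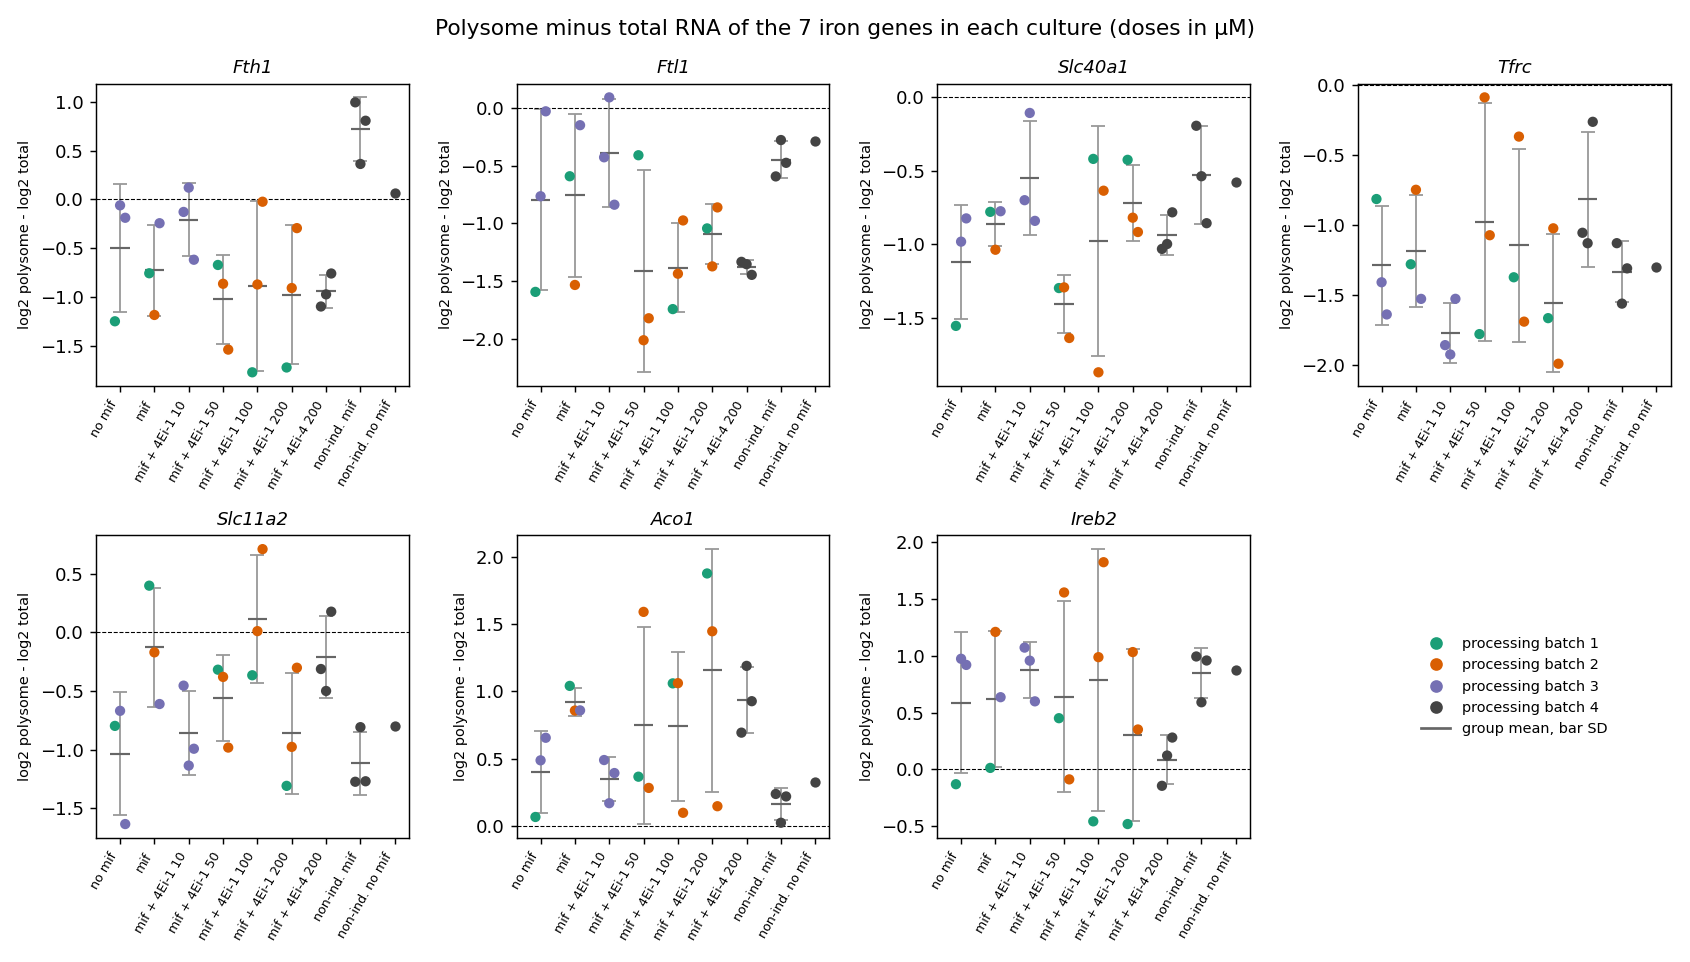
Polysome minus total RNA (log2, vertical axis, scaled separately for each gene) in each of the 25 cultures by condition, coloured by processing batch, with group means and SDs; the dashed line marks 0. Tfrc and Slc40a1 lie below 0 and Aco1 above 0 in all 25 cultures, and Fth1 lies above 0 in all 4 cultures of the non-inducible line.

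Ferritin RNA differed between processing batches. Total RNA of Fth1 ranged from 13.77 to 14.73 over the 25 cultures on the normalized log2 scale, and that of Ftl1 from 9.68 to 12.74. With mifepristone and no drug, Ftl1 total RNA was 11.30 in batch 1, 9.68 in batch 2 and 12.44 in batch 3. On polysomes the same 3 cultures had 10.71, 8.14 and 12.29. The 3 cultures of this condition, 1 from each batch, thus included the lowest total RNA value of all 25 cultures.

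By batch, Ftl1 total RNA of the inducible line averaged 11.54 ± 0.23 (SD, n = 5 cultures) in batch 1, 10.24 ± 0.31 (n = 7) in batch 2, 12.55 ± 0.16 (n = 6) in batch 3 and 11.21 ± 0.11 (n = 3) in batch 4. The 4 ranges did not overlap except for batches 1 and 4. On polysomes the means were 10.47 ± 0.37, 8.81 ± 0.52, 12.20 ± 0.38 and 9.84 ± 0.07. Fth1 on polysomes was also highest in batch 3, at 14.19 ± 0.10 against 13.24 ± 0.47 in batch 1, 13.21 ± 0.50 in batch 2 and 13.19 ± 0.09 in batch 4. Polysome minus total RNA differed by batch too. In the inducible line Fth1 averaged -1.23, -0.81, -0.19 and -0.94 in batches 1 to 4, and Ftl1 -1.08, -1.43, -0.35 and -1.38. The fit of polysome against total RNA took 1 batch correlation for all genes (0.17). It may thus understate the SE of a gene that differs more by batch. The batches held different conditions, so the fits below carry batch as a term, and what set the batches apart was not tested.

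**Figure D3:**
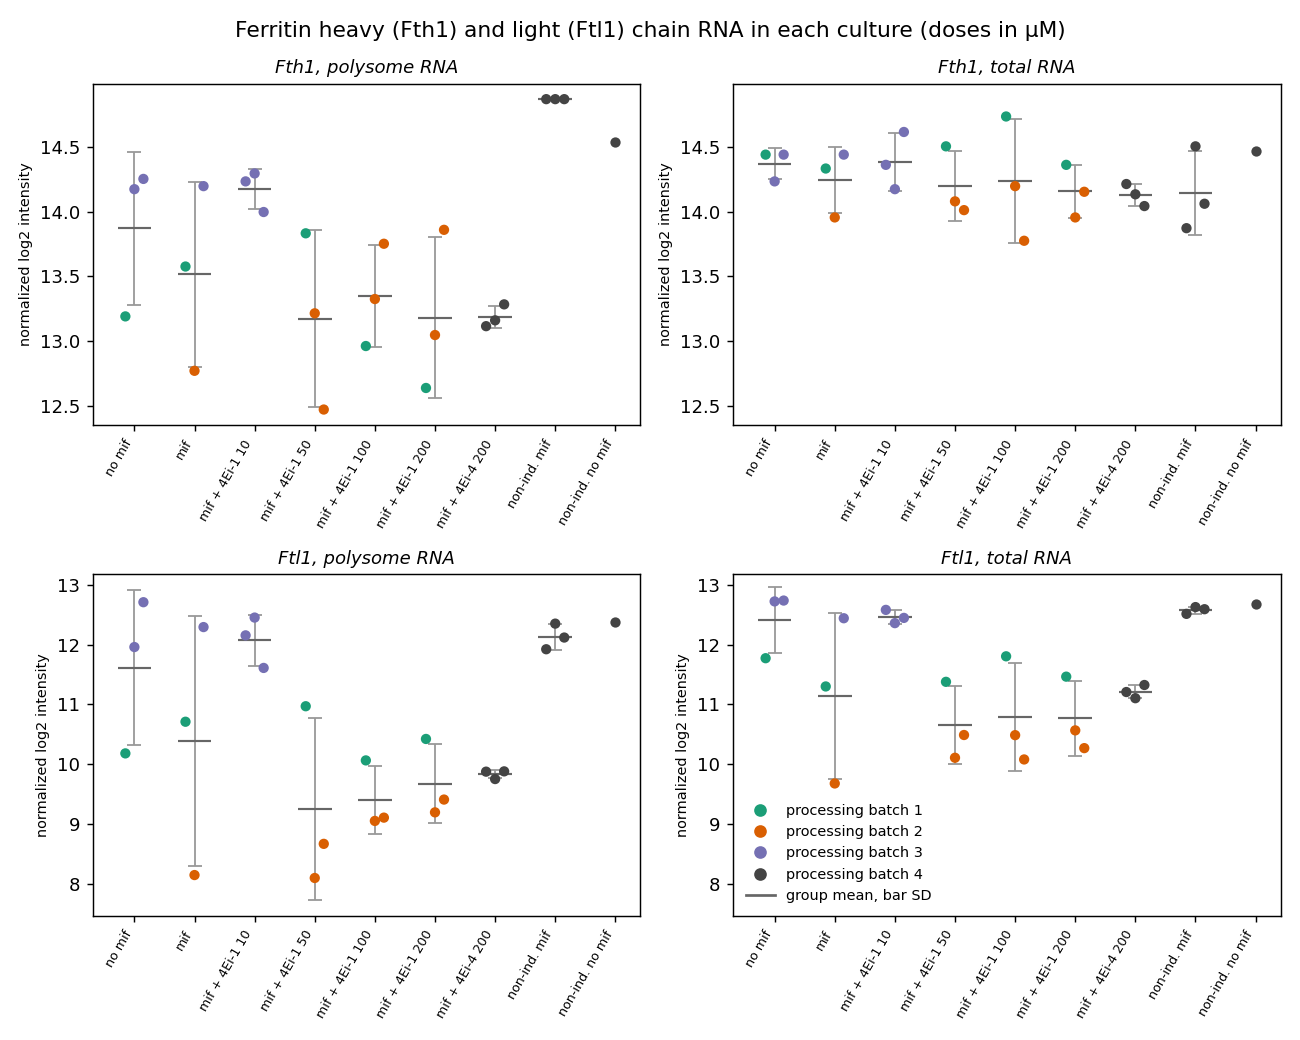
Normalized log2 intensity of Fth1 and Ftl1 (vertical axes) on polysomes and in total RNA of each culture, by condition and coloured by processing batch, with group means and SDs. Ftl1 spreads over 8.09 to 12.71 on polysomes and follows the batch within a condition, and Fth1 on polysomes is at 14.87 in the 3 non-inducible cultures with mifepristone.

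The second comparison asks whether inducing eIF4E changed the iron genes. None of the 7 was called by limma in polysome minus total RNA, on polysomes or in total RNA, where 0%, 0.403% and 0.625% of all genes were called (558 genes had an unadjusted p below 0.05 in the first measure). At an unadjusted p below 0.05 there were 0, 0 and 2 of the 7. These 2 were Ftl1 total RNA (-0.46 ± 0.17, limma adjusted p = 0.418) and Slc11a2 total RNA (-0.63 ± 0.28, limma adjusted p = 0.556). Ftl1 total RNA with mifepristone minus without was -0.47 within batch 1 and -0.29 within batch 3, and Slc11a2 was -0.78 and -0.91.

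In polysome minus total RNA the largest difference with mifepristone was that of Slc11a2. It was -0.80, -0.67 and -1.63 without mifepristone and 0.40, -0.17 and -0.61 with it, so the groups did not overlap, and the fitted difference was 0.68 ± 0.36 (limma adjusted p = 0.994). The other detected probe of Slc11a2 gave 0.07 ± 0.47, with -0.55, -0.00 and -0.88 without and 0.09, -0.91 and -0.46 with mifepristone, which overlap. Aco1 total RNA was not detected on any of the 3 arrays with mifepristone, so its fitted difference is not read here. The 95% intervals of the 7 genes reached from -1.02 to 1.49, which includes differences of 1 on the log2 scale in either direction.

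The third comparison asks how 4Ei-1 changed the iron genes, each dose against the induced line with no drug. No gene of the 7 was called at any dose in any measure by limma. At 10 µM, 0% of all genes were called in polysome minus total RNA, 0% on polysomes and 0% in total RNA, with 125, 136 and 161 genes at an unadjusted p below 0.05. At 50 µM these shares were 0.0158%, 0% and 0.158%, at 100 µM 0.316%, 0.0949% and 0.482%, and at 200 µM 0.403%, 0.0158% and 0.19%. In the same order of measures, the genes of the 7 with an unadjusted p below 0.05 were 0, 0 and 1 at 10 µM, 0, 1 and 1 at 50 µM, 0, 0 and 1 at 100 µM, and 1, 1 and 2 at 200 µM.

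The largest difference was in ferroportin. Slc40a1 total RNA was 7.22, 7.84 and 6.23 with no drug and 5.07, 6.38 and 6.55 at 200 µM, and the groups overlapped. With batch in the fit the difference was -1.43 ± 0.41 (limma adjusted p = 0.161), and it was -2.15 within batch 1 and -1.37 within batch 2. The 5.07 at 200 µM, from batch 1, did not pass the detection threshold. The difference was called, at -1.70 (limma adjusted p = 0.0433), when the no-drug culture of replicate 3, the one from batch 3, was left out. On polysomes the difference of Slc40a1 was -1.06 ± 0.45 at 200 µM (limma adjusted p = 0.340) and -1.23 ± 0.45 at 50 µM (limma adjusted p = 0.646). Its total RNA at 50 µM differed by -0.91 ± 0.41 (limma adjusted p = 0.381), and its polysome minus total RNA at 200 µM by 0.37 ± 0.31. On polysomes Slc40a1 was not detected on 2 of 3 arrays at 50 µM and on 1 of 3 at 200 µM, so these differences are read in part from background.

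Slc11a2 had the largest difference in polysome minus total RNA at 200 µM. Its cultures had 0.40, -0.17 and -0.61 with no drug and -1.31, -0.98 and -0.30 at 200 µM, and the fitted difference was -0.96 ± 0.36 (limma adjusted p = 0.250), with -1.71 within batch 1 and -0.47 within batch 2. The other detected probe gave -0.26 ± 0.47. At 100 µM the difference was 0.02 ± 0.36. Ftl1 total RNA was 0.44 ± 0.17 higher at 200 µM (limma adjusted p = 0.304) and 0.47 ± 0.17 higher at 100 µM (limma adjusted p = 0.246). Aco1 total RNA was 5.67, 5.28 and 5.28 at 10 µM and not detected on the no-drug arrays, at least 1.22-fold higher (limma adjusted p = 1.00). That bound has no batch term. The 10 µM cultures were all in batch 3, which held 1 no-drug culture, at 4.74, so the bound mixes dose and batch. In polysome minus total RNA the differences of Fth1 lay between -0.10 and 0.04 over the 4 doses, with a 95% interval of -0.86 to 0.76 at 200 µM.

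Along the dose series, as a slope per 100 µM over the 5 doses from 0, none of the 7 was called by limma, where 0.0237% of all genes were called in polysome minus total RNA, 0% on polysomes and 0.0395% in total RNA. At an unadjusted p below 0.05 there were 0, 0 and 2. The steepest was Slc40a1 total RNA at -0.68 ± 0.22 (limma adjusted p = 0.268), and the other was Ftl1 total RNA at 0.20 ± 0.09 (limma adjusted p = 0.438).

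**Figure D4:**
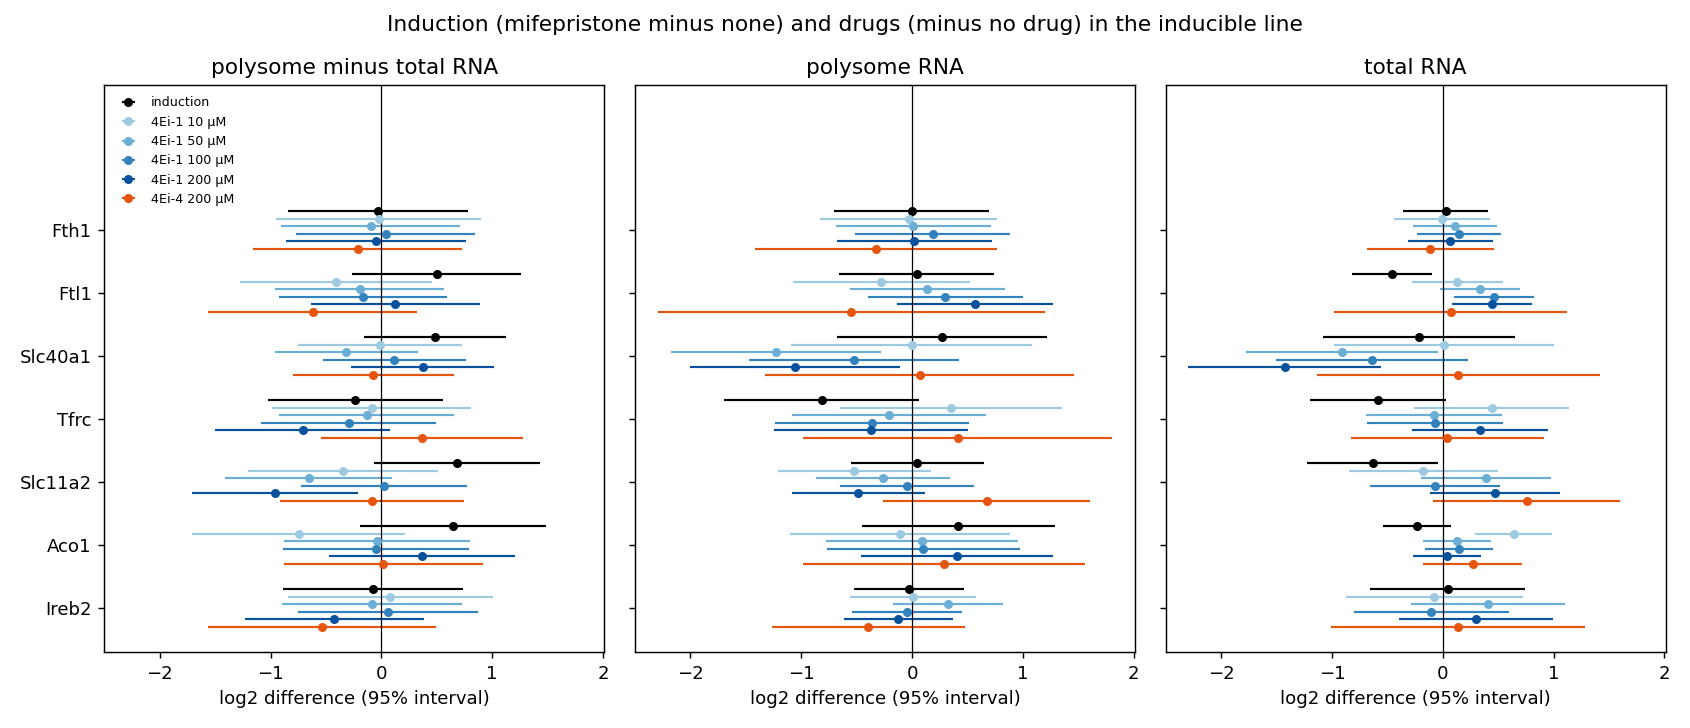
Log2 differences (horizontal axes) with 95% intervals for each gene in polysome minus total RNA, polysome RNA and total RNA: induction in black, 4Ei-1 doses in blues, 4Ei-4 in orange, each drug against mifepristone with no drug. No difference passed an adjusted p of 0.05, and the largest is that of Slc40a1 total RNA at 200 µM 4Ei-1, at -1.43.

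The fourth comparison sets 4Ei-4 against no drug and the pair of compounds against each other at 200 µM. The cultures with 4Ei-4 were all in batch 4, so batch and compound cannot be told apart and batch entered as a random block. None of the 7 was called with 4Ei-4 by limma (0.00791%, 0% and 0.00791% of all genes in the 3 measures), and 0, 0 and 0 had an unadjusted p below 0.05. Between 4Ei-1 and 4Ei-4, the only pair of compounds, none was called either (0%, 0% and 0.00791% of all genes), and 0, 1 and 1 had an unadjusted p below 0.05. These were Slc11a2 on polysomes (-1.08 ± 0.46, 95% interval -2.03 to -0.12, limma adjusted p = 0.763) and Slc40a1 total RNA (-1.45 ± 0.63, 95% interval -2.75 to -0.15, limma adjusted p = 0.999), and for both every culture with 4Ei-1 lay below every culture with 4Ei-4. The other detected probe of Slc11a2 gave -0.35 ± 0.39 on polysomes. In polysome minus total RNA Tfrc differed by -0.85 ± 0.45, with an interval of -1.77 to 0.08, and Fth1 by 0.01 ± 0.46, with an interval of -0.95 to 0.97. The intervals are too wide to show that the compounds act alike on these mRNAs.

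The fifth comparison asks what mifepristone did where eIF4E could not be induced, with 3 cultures against 1. None of the 7 was called by limma (0%, 0% and 0% of all genes, with 35, 71 and 118 genes at an unadjusted p below 0.05), and 0, 0 and 0 of the 7 had an unadjusted p below 0.05. Whether mifepristone acted differently in the 2 lines was tested as an interaction, which was called for none of the 7 (0%, 0.0395% and 0.0316% of all genes), again with 0, 0 and 0 at an unadjusted p below 0.05. For Fth1 polysome minus total RNA, the effect in the non-inducible line was 0.65 ± 0.51, and the effect in the inducible line minus that was -0.68 ± 0.64 (limma adjusted p = 1.00 for both).

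The last comparison sets the inducible against the non-inducible line, both with mifepristone. With no drug, the lines lay in different batches, which cannot be told apart from the lines. The one call was Aco1 total RNA, 4.43, 4.46 and 4.74 in the inducible line, detected on none of the 3 arrays, and 5.40, 5.15 and 5.44 in the non-inducible line. It was -0.78 ± 0.22 (limma adjusted p = 0.0330), which is at least 1.15-fold lower in the inducible line. The call was lost with the authors' log2 values (-0.10), without background correction (-0.24) and without any 1 of 4 of the 6 cultures. In total RNA 6.24% of all genes were called, on polysomes 2.57% with none of the 7 among them, and in polysome minus total RNA 0%, likewise. At an unadjusted p below 0.05 there were 2 of the 7 in each measure. Fth1 had the largest difference in polysome minus total RNA, -1.45 ± 0.46 (limma adjusted p = 0.464), and on polysomes it was -1.35 ± 0.53 (limma adjusted p = 0.193). Ftl1 total RNA differed by -1.44 ± 0.51 (limma adjusted p = 0.0970), and without the no-drug culture of batch 3 by -1.90 (limma adjusted p = 0.0134).

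Batch 4 held cultures of both lines, so the line with mifepristone and 4Ei-4 was set against the non-inducible line with mifepristone, 3 cultures each. This comparison was added after the data were seen, and in it the line and 4Ei-4 cannot be told apart. Ferritin heavy chain RNA was lower on polysomes of the inducible line (-1.68 ± 0.31, limma adjusted p = 0.000300), while total RNA differed by -0.02 ± 0.17 with a 95% interval of -0.37 to 0.34. Fth1 total RNA was 14.21, 14.13 and 14.04 in the inducible line and 13.87, 14.50 and 14.06 in the other. On polysomes it was 13.12, 13.16 and 13.28 against 14.87, 14.87 and 14.87, which is the brightest of the 45281 probes on each of the latter 3 arrays.

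Polysome minus total RNA of Fth1 was thus -1.10, -0.97 and -0.76 in the inducible line and 0.99, 0.36 and 0.81 in the other, with no overlap. The difference was -1.66 ± 0.36 (limma adjusted p = 0.00558), and probe 2 gave -2.09 ± 0.37. Since rank 1 is the top of the normalized scale, the intensities were read as deposited too. On polysomes they were 10804, 11396 and 12446 in the inducible line and 31284, 30695 and 30872 in the other, and in total RNA 21282, 19435 and 19194 against 26135, 30118 and 27307. The brightest probe of any array reached 41209, and whether the signal was compressed at the top of these arrays was not tested. As log2 of these intensities, polysome minus total RNA was -0.79 on average in the inducible line and 0.15 in the other, a difference of -0.95. On this unscaled measure total RNA differed as well, by -0.48, and the total RNA groups did not overlap. Arrays of the non-inducible line were brighter as a whole, with a mean intensity of 384 to 421 on polysomes and 356 to 381 in total RNA against 330 to 344 and 278 to 289. With median scaling in place of quantile normalization the difference was -0.98 (limma adjusted p = 0.0988).

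Ferritin light chain RNA was lower in both fractions. Ftl1 total RNA was 11.21, 11.10 and 11.33 in the inducible line against 12.52, 12.63 and 12.59 (-1.37 ± 0.16, limma adjusted p = 3.45e-06). On polysomes it was 9.87, 9.75 and 9.88 against 11.92, 12.35 and 12.12 (-2.30 ± 0.31, limma adjusted p = 1.19e-05). The difference in polysome minus total RNA was -0.93 ± 0.34 (limma adjusted p = 0.0810). In these cultures the groups did not overlap in any of the 3 measures.

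Tfrc lay the other way in both fractions, and Slc11a2 by 1 of its 2 detected probes on polysomes. Tfrc was higher in the inducible line on polysomes, at 6.51, 6.52 and 7.57 against 5.61, 5.42 and 5.44 (1.38 ± 0.39, limma adjusted p = 0.00965), and in total RNA, at 7.57, 7.64 and 7.83 against 6.74, 6.98 and 6.75 (0.86 ± 0.27, limma adjusted p = 0.0250). Slc11a2 was higher on polysomes, at 6.33, 6.25 and 7.22 against 5.64, 5.41 and 5.72 (1.01 ± 0.27, limma adjusted p = 0.00625), while its total RNA differed by 0.10 ± 0.26. The third 4Ei-4 culture was the highest of both genes on polysomes. The other detected probe of Slc11a2 gave 0.11 ± 0.25 on polysomes and that of Tfrc 1.25 ± 0.50 (limma adjusted p = 0.859 and 0.0684 with all detected probes fitted). Without that culture Tfrc on polysomes was 1.02 higher in the inducible line (limma adjusted p = 0.0753) and Slc11a2 0.70 higher (limma adjusted p = 0.0583). Tfrc total RNA missed the threshold without any 1 of 4 of the 6 cultures, with an adjusted p between 0.0582 and 0.0901 by limma. With median scaling it was 0.45 (limma adjusted p = 0.197).

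Of the regulatory proteins, Ireb2 by its probe 1 was 6.16, 6.30 and 6.45 on polysomes in the inducible line against 7.31, 7.29 and 7.74 (-1.14 ± 0.22, limma adjusted p = 0.000436). The size of this difference depended on the processing, from -1.80 to -0.49 over the alternatives. The probes of Ireb2 disagreed in total RNA, at -0.38 ± 0.31 for probe 1 and 1.07 ± 0.25 for probe 2 (limma adjusted p = 0.00313 with all detected probes fitted). Aco1 total RNA was lower, at 4.91, 4.74 and 4.81 against 5.40, 5.15 and 5.44 (-0.51 ± 0.14, limma adjusted p = 0.00809), with 2 of 3 and 3 of 3 arrays detected. The call was lost with the authors' log2 values (-0.02, limma adjusted p = 0.852) and without background correction (-0.14, limma adjusted p = 0.0568), and with an offset of 50 the difference was -0.26. Slc40a1 was not called in any measure, and its total RNA differed by 0.76 ± 0.38 (limma adjusted p = 0.182). In all, 1 of the 7 was called in polysome minus total RNA, 5 on polysomes and 3 in total RNA, where 11.7%, 31.5% and 24.6% of all genes were called. The medians over the 7 were -0.41, 0.26 and -0.02, against 0.00, 0.01 and 0.02 over all genes.

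**Figure D5:**
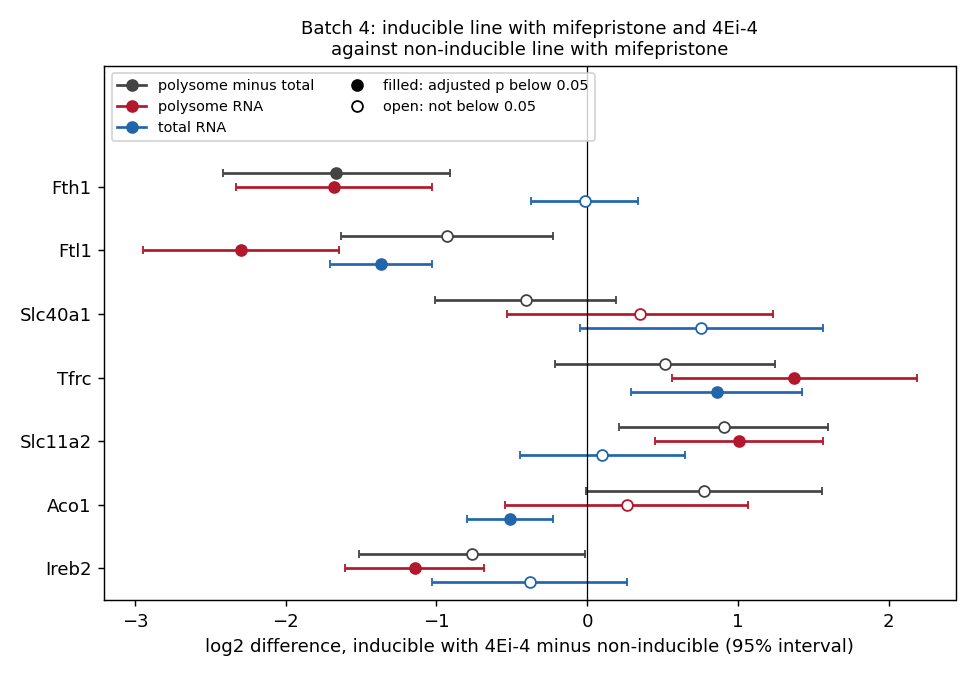
Log2 differences (horizontal axis) with 95% intervals within processing batch 4, inducible line with mifepristone and 4Ei-4 minus non-inducible line with mifepristone, 3 cultures each; filled points passed an adjusted p of 0.05. Ftl1 on polysomes is lowest at -2.30 and Tfrc on polysomes highest at 1.38, while Fth1 is at -1.68 on polysomes and -0.02 in total RNA.

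Across the 25 cultures, values of the ferritin chains were correlated with each other and inversely with Tfrc on polysomes. These correlations describe cultures that share batches and lines. They use probe 1 of each gene, and the direction of Ireb2 in polysome minus total RNA depended on the probe. In polysome minus total RNA Pearson's r was 0.72 between Fth1 and Ftl1, -0.71 between Ftl1 and Tfrc and 0.59 between Fth1 and Ireb2. On polysomes r was 0.82 between Fth1 and Ftl1, -0.80 between Fth1 and Tfrc, -0.77 between Ftl1 and Tfrc and 0.87 between Fth1 and Ireb2. In total RNA it was 0.54 between Fth1 and Ftl1, -0.49 between Ftl1 and Tfrc and -0.06 between Fth1 and Tfrc.

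Among 4806 genes detected on all arrays, those most like Fth1 in polysome minus total RNA over the 25 cultures were Gmppa (r = 0.92), Ccndbp1 (0.91) and Ttc33 (0.90). In total RNA they were Vat1 (0.77), Acot13 (0.76) and Mdh2 (0.76). For Tfrc they were Atp1b1 (0.87), Atp6ap2 (0.85) and Adamts12 (0.82) in polysome minus total RNA, and Tmem242 (0.83), Trpc4ap (0.82) and 4933434E20Rik (0.82) in total RNA.

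Of 72 other iron genes in a list by role, 55 were tested. Polysome against total RNA, 18 of the 55 were called higher and 16 lower, with a median of 0.02 against 0.05 over all genes, of which 26.9% were called higher and 18.2% lower. App, the amyloid precursor protein, whose mRNA has a 5′ IRE in humans, was called lower, the single gene tested of the other mRNAs with a 5′ IRE, at -1.54. The 2 others with an IRE in the 3′ untranslated region, Cdc42bpa and Cdc14a, were not called. Of 16 genes of haem synthesis, transport and breakdown, 9 were called higher and 3 lower, with a median of 0.47. Alad (1.16 ± 0.08, limma adjusted p = 3.91e-11) and Urod (1.02 ± 0.08, limma adjusted p = 2.44e-10), enzymes of haem synthesis, and Blvrb (1.11 ± 0.08, limma adjusted p = 2.11e-10), a biliverdin reductase, had the smallest adjusted p-values of those called higher. Of 16 mitochondrial and iron-sulfur cluster genes, 6 were called higher and 5 lower. Isca1, a cluster assembly factor, lay at -1.75 ± 0.12 (limma adjusted p = 4.78e-11).

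With induction, 1 of the 55 rose on polysomes and 2 rose in total RNA, and none fell. Of all genes, 0.403% and 0.625% were called in these measures. Steap2, a metalloreductase that reduces iron for uptake, rose by 2.14 ± 0.18 on polysomes and by 2.04 ± 0.14 in total RNA (limma adjusted p = 2.16e-06 and 7.4e-08). The effect of mifepristone on Steap2 in the inducible line minus that in the non-inducible line was 1.81 ± 0.30 on polysomes. In total RNA it was 1.89 ± 0.23. Neo1, the receptor neogenin, which binds the hepcidin regulator hemojuvelin, rose by 1.32 ± 0.25 in total RNA (limma adjusted p = 0.0102). At 100 µM 4Ei-1 Heph, the ferroxidase hephaestin, rose by 1.18 ± 0.21 on polysomes (limma adjusted p = 0.0472) and was detected on 14 of 50 arrays. Cul1, a scaffold of the ubiquitin ligase that degrades iron regulatory protein 2, rose by 1.50 ± 0.26 in total RNA (limma adjusted p = 0.0185). At 100 µM 0.0949% of all genes were called on polysomes and 0.482% in total RNA. At 10, 50 and 200 µM and with 4Ei-4, 0 of the 55 were called by limma in any measure, and in total RNA 0, 10, 7 and 1 of them had an unadjusted p below 0.05. Between the lines with mifepristone and no drug, which lay in different batches, Steap2 (2.66) and Neo1 (2.48) were called higher on polysomes in the inducible line. In total RNA 4 were called higher and 6 lower, among them Steap2 (2.24), Heph (-1.52), Nfu1 (-1.40) and Lrp1 (-2.52). Of all genes, 2.57% and 6.24% were called there.

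Between the lines within batch 4, 9 of the 55 were called higher and 2 lower in polysome minus total RNA, 12 higher and 10 lower on polysomes, and 14 higher and 8 lower in total RNA. Of all genes, 11.7%, 31.5% and 24.6% were called in these measures. In polysome minus total RNA Lrp1, a receptor that takes up haem bound to hemopexin, was higher in the inducible line by 2.25 ± 0.42 (limma adjusted p = 0.00236) and was detected on 28 of 50 arrays. Steap3, an endosomal ferrireductase, was higher by 1.61 ± 0.32 and Ppox, an enzyme of haem synthesis, by 1.37 ± 0.27 (limma adjusted p = 0.00312 and 0.00342). Steap2 was higher in the inducible line by 2.95 ± 0.17 on polysomes and Neo1 by 3.25 ± 0.33 (limma adjusted p = 5.25e-10 and 4.69e-07). Ncoa4, the receptor that carries ferritin to lysosomes for breakdown, was lower in the inducible line in polysome minus total RNA, at -1.92 ± 0.41 (limma adjusted p = 0.00531). Skp1, a partner of Cul1 in its ubiquitin ligase, was lower, at -2.37 ± 0.28 on polysomes and -2.18 ± 0.28 in total RNA (limma adjusted p = 2.85e-06 and 9.26e-06). Heph was lower in total RNA, at -1.76 ± 0.22 (limma adjusted p = 8.9e-06).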

How the data were processed

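The authors deposited, per the file headers, linear bead-summary intensities without normalization for 45281 probes on 50 Illumina arrays, with a detection p-value for each. A second deposited table by the authors holds log2 values; no label or header states how they were normalized. It ranked the probes of each array as the intensities do, and it served as an alternative. Per the labels' protocols, cells were treated with cycloheximide and lysed, and polysome fractions came from sucrose gradients.

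The intensities were background-corrected with nec of limma 3.58.1 (R 4.3.3, statmod 1.5.0, offset 16), which uses the detection p-values, then quantile-normalized over all 50 arrays and put on the log2 scale. Polysome minus total log2 values of a culture, the polysome values and the total values were each fitted with lmFit and eBayes over all 12644 genes tested, with Benjamini-Hochberg adjustment and a threshold of 0.05. A gene was represented by its probe of highest mean, detected at a p below 0.05 on at least 3 arrays. Batch was a fixed term within the inducible line and within the non-inducible line, and a random block (duplicateCorrelation) in comparisons across batches and in polysome against total RNA. The fits were tested on simulated data. Alternatives changed the source of values, background correction, offset, normalization, filter, batch term, probe choice and cultures, 1 at a time.

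Named were the 7 iron genes in every comparison, up to 4 called genes of the list of 72 other iron genes for each comparison and measure by smallest adjusted p, and, for Fth1 and Tfrc, the 3 most alike genes by Pearson correlation. The members and lists were chosen with earlier results of these data known. Probe names come from the platform annotation, and the number of arrays limits the precision.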

Additional observations from a re-analysis of the deposited data

Results flagged for a closer look

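Polysome minus total RNA of Fth1 lay above 0 in all 3 cultures of the non-inducible line with mifepristone. It lay below 0 in all 3 cultures of 6 conditions of the inducible line. The cultures nearest 0 were at -0.06 without mifepristone and -0.02 at 100 µM 4Ei-1. The remaining condition of this line, 10 µM 4Ei-1, had a culture at 0.12 and a mean of -0.21. The mean difference from the non-inducible line was -1.22 without mifepristone and -1.45 with mifepristone and no drug. It was -1.74, -1.61 and -1.69 with 4Ei-1 at 50, 100 and 200 µM, and -1.66 with 4Ei-4. The difference with 4Ei-4, within 1 processing batch, was called (limma adjusted p = 0.00558), and that with no drug was not (limma adjusted p = 0.464). The other 4 were not tested. These 6 differences share the same 3 non-inducible cultures, whose polysome values lie at the top of the normalized scale. All but the difference with 4Ei-4 compare different batches, so line and batch cannot be told apart in them.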

How the results depend on the processing

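Counts below are of the 7 iron genes called. Polysome against total RNA gave 7 under every alternative except genes detected on every array, where 3 genes (Fth1, Ftl1 and Tfrc) could be tested and 3 were called. With all probes fitted singly, a gene's probe with the smallest adjusted p stood for it. Probe 2 of Ireb2, not called and of the other direction, thus did not enter the count. Induction, 10, 50 and 100 µM 4Ei-1, 4Ei-4, mifepristone in the non-inducible line and its difference between the lines gave 0 under every alternative run. At 200 µM 4Ei-1, total RNA gave 0 to 1 when 1 culture was left out. The compounds differed in 1 gene on polysomes with median scaling, which moved the median of all genes there by -0.74. The dose trend on polysomes gave 1 with no batch term and 1 with the replicate number as a block, and the lines on polysomes likewise gave 1 and 1. In total RNA between the lines, against 1, there were 0 with the authors' values, 0 without background correction, 3 with median scaling and 0 among genes detected on every array, and 0 to 2 when 1 culture was left out. Median scaling moved the median of all genes there by -0.85, and Aco1 by -1.40. In batch 4, polysome minus total RNA gave 1, but 2 with the authors' values, with median scaling, among genes detected on every array and with all probes fitted singly. With median scaling those 2 did not include Fth1. On polysomes it gave 5, but 4 with the authors' values and 4 with no batch term, both without Tfrc, 3 among genes detected on every array and 3 to 5 when 1 culture was left out. In total RNA it gave 3, but 1 with the authors' values, 1 when batch was left out of the fit, 1 with the replicate number as a block and 2 to 3 when 1 culture was left out. Except for the filter, which leaves fewer genes to test, the causes were not tested. No gene called in the main fit turned direction. Ireb2 total RNA in batch 4, at -0.38 and not called in the main fit, was called in the other direction, at 1.07, with all probes fitted singly.

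The replicate numbers do not pair the samples: deviations of same-numbered samples correlated at 0.006 in polysome minus total RNA, 0.072 on polysomes and 0.076 in total RNA, with 23, 31 and 31 of 84 pairs over 0.1. Over all genes, the replicate block took the dose trend on polysomes from 0 to 1736 calls and no batch term to 1474. In batch 4 calls on polysomes went from 3981 to 2869 with the replicate block and 2616 with no batch term. Signal over background limits Aco1, detected on 30 of 50 arrays, and Slc40a1, detected on 20 of 25 polysome arrays.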
